A study of Mus musculus with 35 samples.

Results

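The 10 genes described here carry iron into macrophages, store it, release it from ferritin and heme, and export it. They were taken by symbol from the filtered count table, as a list chosen with earlier results of these data known: the ferritin subunits Fth1 and Ftl1, the ferritin cargo receptor Ncoa4, the importers Tfrc, Slc11a2 and Slc11a1, the exporter Slc40a1, the heme oxygenase Hmox1, and the iron regulatory proteins Aco1 and Ireb2. All 10 were among the 21236 genes of the table, and all 10 had counts in every sample.

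The RNA came from microglia, the resident macrophages of the brain, sorted as tdTomato-positive cells from the midbrain, striatum and prefrontal cortex (PFC) of 12 mice, 6 male and 6 female. Every mouse carried Tmem119-2A-CreERT2 and Ai14(RCL-tdTomato)-D, both heterozygous, was 17 to 18 weeks old, and received tamoxifen as 5 daily injections of 75 mg/kg with sacrifice 10 to 21 days after the last one. There was no group without tamoxifen or reporter, and the label marks cells in which the Tmem119 promoter drove Cre. The table held 12 midbrain, 12 striatum and 11 PFC samples, since the PFC of male mouse 3 was lost, and the regions and the sexes were compared over these 35 samples.

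Values are in CPM, the counts of a gene scaled to the total of its library, with TMM factors between libraries (trimmed mean of M-values). Total counts per sample ran from 37680501 to 54131421, and a floor of 3 counts corresponded to between 0.0561 and 0.0789 CPM. This floor covers counting error only. The lowest count of any member in any sample was 329, for Tfrc. Of 9 microglial markers, all were detected in every sample, and their summed level was 35028 to 39291 CPM in the midbrain, 38102 to 44158 in the striatum and 34881 to 41025 in the PFC. Summed astrocyte markers were 209 to 264, 259 to 431 and 260 to 491 CPM in that order, oligodendrocyte markers 305 to 516, 302 to 881 and 231 to 535, neuron markers 3.42 to 8.55, 6.42 to 14.6 and 10.3 to 28.3, and endothelial and pericyte markers 12.0 to 62.3, 25.2 to 91.4 and 18.2 to 49.3. Erythroid markers, which include the globins, reached 103 CPM in the midbrain, 87.7 in the striatum and 21.3 in the PFC, and were at or near 0 in the lowest sample of each region. Border macrophage markers reached 131 CPM in the midbrain of mouse 6, against at most 17.7 in the other midbrain samples, and monocyte and neutrophil markers reached 44.5 CPM in the PFC of mouse 1, against at most 7.74 in the other PFC samples. A list of 14 genes that dissociation of tissue can induce summed to 30493 to 50408 CPM in the midbrain, 24027 to 51713 in the striatum and 29727 to 47435 in the PFC. In sorted bulk RNA, fewer cells of a type and less RNA per cell cannot be told apart.

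Iron reaches macrophages bound to transferrin, which the transferrin receptor (Tfrc) takes up, and as heme from engulfed cells. Divalent metal transporters move it out of the endosome (Slc11a2) or the phagosome (Slc11a1), ferritin cages of heavy (Fth1) and light (Ftl1) subunits hold it, and NCOA4 carries ferritin to the lysosome to free it again. Ferroportin (Slc40a1) is the exporter. The iron regulatory proteins IRP1 (Aco1) and IRP2 (Ireb2) bind a stem-loop in the RNA, the iron-responsive element, when iron is scarce. Binding before the coding sequence blocks translation, and binding after it protects the RNA from decay. Counts of RNA do not measure the translational step.

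The annotated transcripts of GRCm38 (GENCODE M21) were searched, on the transcript strand only, for the core of this element: a bulged C, a stem of 5 bases, the loop CAGTGN, and 5 bases that pair with the first 5 (G with T allowed). Matches to this core in the UTRs were found in 4 members and are shown. The bulged C and the loop are in capitals.
Fth1, 5′ UTR, chr19:9982733-9982759, plus strand: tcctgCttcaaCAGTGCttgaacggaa
Ftl1, 5′ UTR, chr7:45459780-45459806, minus strand: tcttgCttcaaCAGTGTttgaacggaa
Slc40a1, 5′ UTR, chr1:45925466-45925492, minus strand: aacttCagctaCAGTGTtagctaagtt
Tfrc, 3′ UTR, chr16:32631220-32631246, plus strand: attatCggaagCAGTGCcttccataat
Tfrc, 3′ UTR, chr16:32631599-32631625, plus strand: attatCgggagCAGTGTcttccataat
Tfrc, 3′ UTR, chr16:32631664-32631690, plus strand: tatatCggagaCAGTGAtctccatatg
Tfrc, 3′ UTR, chr16:32631711-32631737, plus strand: attatCgggaaCAGTGTttcccataat

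Both ferritin subunits and ferroportin thus held 1 match before the coding sequence, and Tfrc held 4 after it. Among all annotated genes, 31 of 20597 (0.151%) had a match in a 5′ UTR and 129 of 20995 (0.614%) in a 3′ UTR. In their UTRs the other 6 members had no match to this core, which says only that these letters were not in their annotated UTRs. The search required all 5 pairs, so an element with a further bulge in this stem would be missed. Among the other iron genes listed below, Alas2 had a match in its 5′ UTR and Bola3 in its 3′ UTR.

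Levels of the members spanned a wide range. Divided by the length of the longest principal coding transcript, Ftl1 stood at 1924 ± 414 CPM per kilobase (SD, n = 35) and Fth1 at 1728 ± 242. Their ranges over samples overlapped, and with the shortest principal transcript of Fth1 (929 bases in place of 1494) its mean was 2778, so the order of the subunits depends on the transcript. Slc11a1 followed at 146 ± 19.3 CPM per kilobase, then Hmox1 at 96.2 ± 48.8 and Slc40a1 at 91.2 ± 19.3. The last pair did not differ beyond their spread. Ncoa4 stood at 19.7 ± 2.42, Aco1 at 14.2 ± 1.26 and Slc11a2 at 12.8 ± 2.03 CPM per kilobase, and the lowest were Tfrc at 3.19 ± 0.74 and Ireb2 at 2.80 ± 0.57. The spread of Slc11a2 overlapped that of Aco1, as did that of Tfrc and Ireb2.

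**Figure D1:**
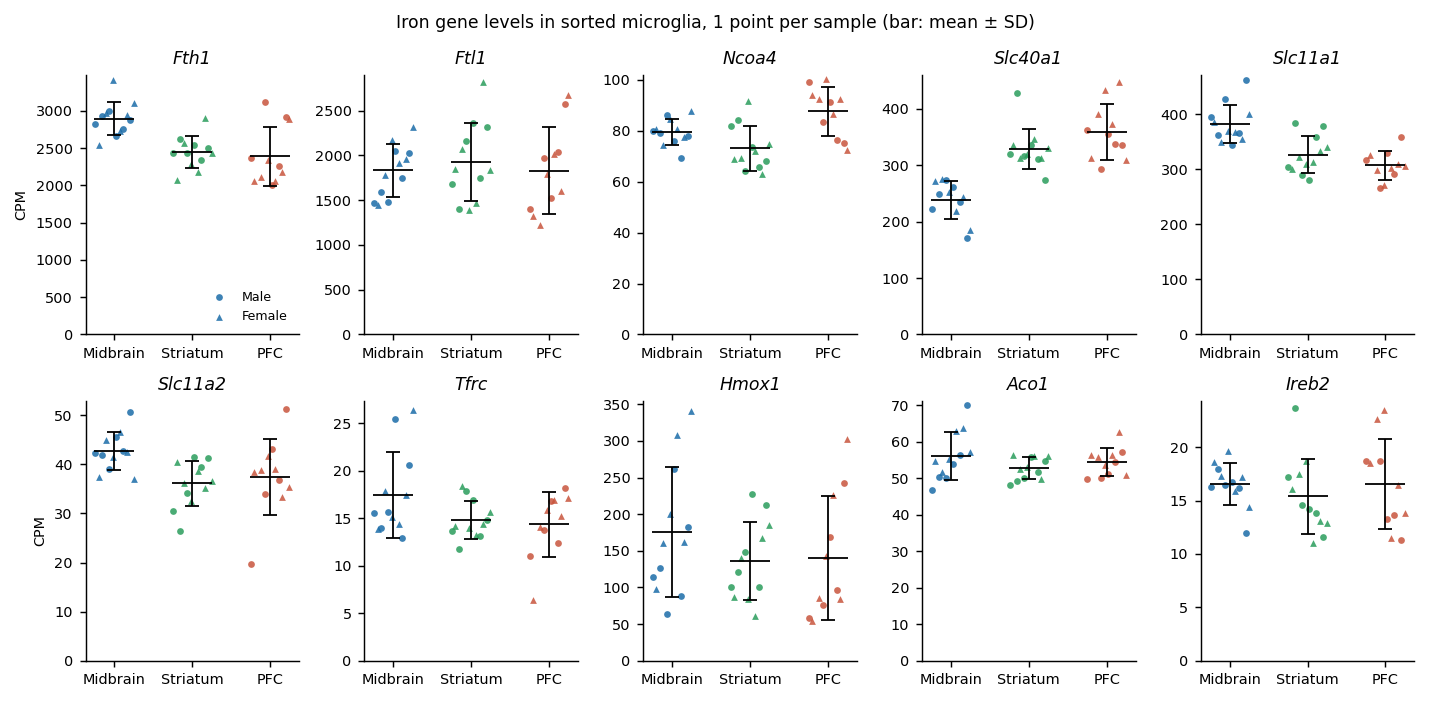
Level of each of the 10 genes in CPM (vertical axes, from 0) in the midbrain, striatum and PFC, with 1 point per sample (circles male, triangles female) and bars for the mean ± SD of 12, 12 and 11 samples. Slc40a1 is lowest in the midbrain, where no sample exceeds 275 CPM, while Fth1 and Slc11a1 have their highest means there and Hmox1 varies widely within every region.

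An effect of brain region (edgeR's quasi-likelihood test over all genes, Benjamini-Hochberg adjusted p under 0.05) was found for 4 of the 10 members, against 8.89% of all genes tested and 11.5% of the 8623 genes with a mean of at least 8 CPM. These were Slc40a1 (adjusted p = 2.22e-06), Slc11a1 (adjusted p = 3.37e-04), Fth1 (adjusted p = 0.00582) and Ncoa4 (adjusted p = 0.0157). A pair of regions was called different when the region effect passed and the pair itself reached p under 0.05, unadjusted, and a change of more than 1.2-fold. Between PFC and midbrain 3 members were called, against 5.99% of all genes: Slc40a1 was higher in the PFC (2.75% of all genes were) and Fth1 and Slc11a1 were lower (3.24%). Between striatum and midbrain Slc40a1 alone was called, higher in the striatum, against 6.47% of all genes in either direction and 3.50% that were higher (2.98% were lower). Between striatum and PFC 0 members were called, against 3.14% of all genes (2.31% higher and 0.833% lower in the striatum). In that pair 1 member had an unadjusted p under 0.05, and DESeq2 also called 0. With an adjusted p under 0.05 for the pair and no minimum on the fold change, the numbers were 3 (6.52% of all genes), 3 (7.45%) and 1 (0.570%). The median log2 difference over the 10 members was -0.12 for PFC minus midbrain, -0.17 for striatum minus midbrain and -0.026 for striatum minus PFC, and over all genes 0.011, 0.012 and 0.0081.

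**Figure D2:**
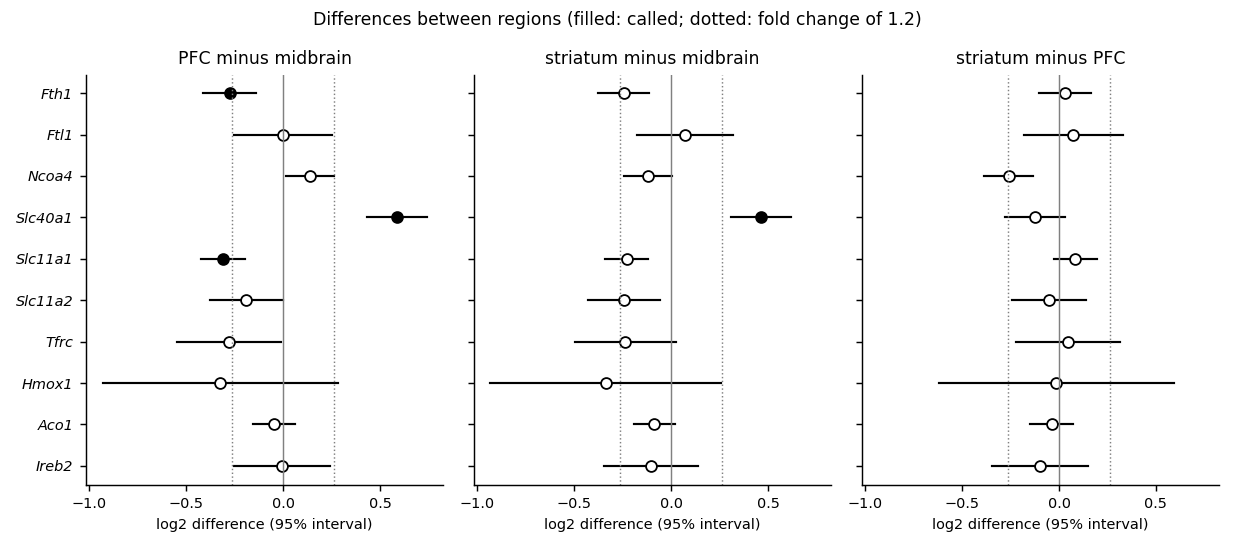
Log2 differences between regions for the 10 members (horizontal axes) with 95% intervals from the edgeR fit over 35 samples, filled where the pair was called. Slc40a1 lies above the dotted line of a 1.2-fold change in both comparisons with the midbrain, and Fth1 and Slc11a1 lie near or below the lower one. Hmox1 (in both comparisons) and Tfrc (in PFC minus midbrain) also lie below the lower line, and neither was called.

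Slc40a1 (GRCm38 chromosome 1, 45908068 to 45926523, minus strand) encodes ferroportin, the only known exporter of iron from vertebrate cells, and its RNA was higher in the forebrain regions than in the midbrain. It measured 171 CPM in the lowest midbrain sample, 247 at the median and 275 in the highest, against 275, 319 and 427 in striatum samples and 293, 355 and 447 in PFC samples. Every PFC sample lay above every midbrain sample, a separation found for 0.476% of all genes. Among the members and pairs of regions this was the only one without overlap, and such a separation was found for 0.297% of all genes between striatum and midbrain and for 0.0188% between striatum and PFC. The lowest striatum sample and the highest midbrain sample met. The midbrain mean was 238 ± 33.8 CPM (SD, n = 12), that of the striatum 329 ± 35.9 (n = 12) and that of the PFC 359 ± 49.7 (n = 11). The log2 difference was 0.59 (standard error 0.077, edgeR adjusted p = 1.21e-06) for PFC minus midbrain, a 1.503-fold change with a 95% interval of 1.35 to 1.67. For striatum minus midbrain it was 0.46 (standard error 0.075, edgeR adjusted p = 8.16e-05), or 1.38-fold with an interval of 1.24 to 1.53.

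Within single mice, the PFC exceeded the midbrain in Slc40a1 in 11 of 11, and the striatum did so in 12 of 12. Striatum and PFC differed by -0.12 (95% interval -0.28 to 0.033, edgeR adjusted p = 0.566), with the striatum lower in 8 of 11 mice. Fitted apart, mice 1 to 6 gave 0.47 for PFC minus midbrain and mice 7 to 12 gave 0.71, while striatum minus midbrain was 0.40 and 0.53. The highest striatum value came from mouse 3, the sample whose column name and label disagree on the region. Without it the difference from the midbrain was 0.42 (edgeR adjusted p = 1.69e-04). Astrocyte and neuron markers were also lowest in the midbrain. With the mean of 36 markers of neurons, astrocytes, oligodendrocytes and endothelial cells as a covariate, the differences of Slc40a1 from the midbrain were 0.59 for the PFC and 0.45 for the striatum. Leaving out any mouse, mouse 6 with its border macrophage markers included, kept the difference of the PFC between 0.55 and 0.63 and that of the striatum between 0.43 and 0.49. Region accounted for 66.6% of the sum of squares of log2 CPM of Slc40a1 over the 35 samples, against a median of 8.59% over the 8623 genes with a mean of at least 8 CPM.

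Fth1 (chromosome 19, 9980598 to 9985098, plus strand), the heavy subunit with the ferroxidase activity that lets ferritin take up iron, was higher in the midbrain. It measured 2547 CPM in the lowest midbrain sample, 2902 at the median and 3415 in the highest, against 2077, 2438 and 2902 in striatum samples and 2001, 2258 and 3119 in PFC samples. The regions overlapped, and 3 PFC samples, of mice 5, 11 and 12, reached into the midbrain range. PFC minus midbrain was -0.28 (standard error 0.067, edgeR adjusted p = 0.00646), a 1.21-fold higher level in the midbrain that only just passed the minimum of 1.2, and it was lower in the PFC in 9 of 11 mice. Striatum minus midbrain was -0.25 (standard error 0.065, edgeR adjusted p = 0.0150) with the striatum lower in 12 of 12 mice, a change of 1.19-fold that missed the minimum. Striatum and PFC differed by 0.030 (95% interval -0.10 to 0.17). Without mouse 4 or without mouse 6 the fold change between PFC and midbrain also fell under the minimum (-0.26 and -0.25 on the log2 scale, adjusted p = 0.0268 and 0.0213), and without mouse 10 the striatum passed it (-0.27). Fitted on mice 1 to 6 or on mice 7 to 12 separately, Fth1 missed the threshold for region (adjusted p = 0.0871 and 0.164), with PFC minus midbrain at -0.30 and -0.26. With the markers of other brain cells as a covariate, the difference of the striatum from the midbrain was -0.34 (adjusted p = 0.00290), which met the call.

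Ftl1, the light subunit, which supports the mineral core, did not pass the test for region (adjusted p = 0.917). It measured 1449 CPM at the lowest, 1852 at the median and 2314 at the highest in the midbrain, 1387, 1844 and 2821 in striatum samples and 1217, 1789 and 2677 in PFC samples. The 3 ranges overlapped almost whole, and the 95% interval of PFC minus midbrain ran from -0.26 to 0.25. The ratio of Fth1 to Ftl1 in CPM was 1.61 ± 0.23 in midbrain samples (SD, n = 12), 1.32 ± 0.26 in striatum samples (n = 12) and 1.35 ± 0.26 in PFC samples (n = 11). It was lower than in the midbrain in 9 of 12 mice for the striatum and in 9 of 11 for the PFC, and was not tested. The table also holds 7 pseudogenes or copies of Ftl1, between 90.8% and 99.6% identical to it, at a summed 94.1 CPM or 5.05% of Ftl1. The best match, Ftl1-ps1, stood at 69.7 ± 22.8 CPM (n = 35). How the counting divided reads between such copies is not given in the sources used here, so their shares are uncertain. With the copies added to Ftl1 it still did not pass. Gm6977, a 90.5% match to Fth1, stood at 2.48 ± 0.70 CPM.

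Ncoa4 (chromosome 14, 32159865 to 32179855, plus strand) encodes the receptor that takes ferritin to the autophagosome, and its highest levels were in the PFC. It measured 69.3, 79.4 and 87.9 CPM at the lowest, median and highest in the midbrain, 63.0, 70.6 and 91.6 in striatum samples and 72.4, 91.4 and 100.3 in PFC samples. All 3 regions overlapped. Striatum minus PFC was -0.26 (standard error 0.062, edgeR adjusted p = 0.0394), and the striatum was lower in 10 of 11 mice. The fold change of 1.197 missed the minimum of 1.2. A fit that blocked on the mouse, without the sex term, called this pair, at -0.27 (adjusted p = 0.00469). PFC minus midbrain was 0.14 (adjusted p = 0.229) and striatum minus midbrain -0.12 (adjusted p = 0.261). The effect of region was lost without mouse 2 (adjusted p = 0.0594), mouse 4 (0.0524) or mouse 10 (0.0592), and in both subsets of mice (adjusted p = 0.169 and 0.109), where striatum minus PFC was -0.29 and -0.25. It was also lost with the markers of other brain cells as a covariate (adjusted p = 0.109), and there the difference itself was smaller: striatum minus PFC was -0.16 and striatum minus midbrain -0.013.

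The table holds Gm6768, a copy on chromosome 12 that matches Ncoa4 over 1878 bases at 99.9% identity, at 27.8 ± 3.41 CPM (SD, n = 35) or 34.8% of Ncoa4. Its level over the regions ran like that of Ncoa4, with 27.3 CPM in the midbrain, 25.4 in the striatum and 30.9 in the PFC. Reads from Ncoa4 could be counted there, and both values are uncertain for that reason. With both summed, striatum minus PFC was -0.26 (adjusted p = 0.0283), past the minimum of 1.2.

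**Figure D3:**
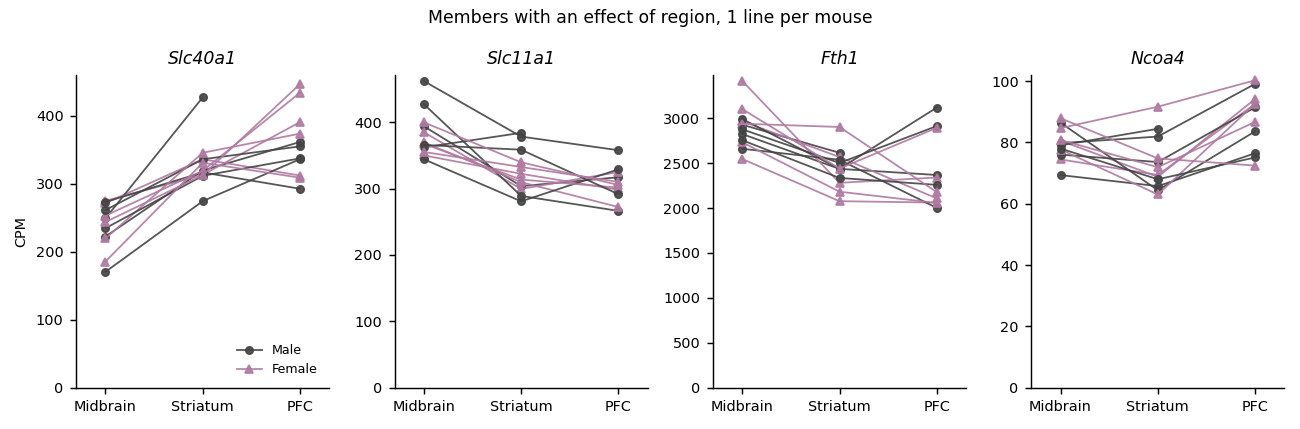
Level in CPM (vertical axes, from 0) of the 4 members with an effect of region, with 1 line per mouse across the midbrain, striatum and PFC (circles male, triangles female, no PFC point for mouse 3). Slc40a1 rises from midbrain to striatum in all 12 mice, Slc11a1 falls from midbrain to PFC in all 11 mice with both samples, and the lines of Fth1 and Ncoa4 cross.

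Slc11a1 (chromosome 1, 74375195 to 74386062, plus strand) encodes NRAMP1, the divalent metal transporter of the phagosome membrane of macrophages, and was higher in the midbrain. It measured 344 CPM in the lowest midbrain sample, 368 at the median and 462 in the highest, against 281, 318 and 384 in striatum samples and 266, 305 and 358 in PFC samples. The ranges overlapped, with the PFC lowest. PFC minus midbrain was -0.31 (standard error 0.056, edgeR adjusted p = 1.97e-04), a level 1.24-fold higher in the midbrain, and the PFC was lower in 11 of 11 mice. Striatum minus midbrain was -0.23 (standard error 0.055, edgeR adjusted p = 0.00681) with 11 of 12 mice lower in the striatum, and its fold change of 1.17 missed the minimum. The exception was mouse 3, whose striatum value was the highest of that region. The column name and label of that sample disagree on the region. Mice 1 to 6 gave -0.36 for PFC minus midbrain and mice 7 to 12 gave -0.28, where the region effect itself missed the threshold (adjusted p = 0.0732). In mice 1 to 6 striatum minus midbrain was -0.26, which met the minimum. A gene that is no family member, Dcaf10, shares a stretch of 151 bases with it and stood at 15.2 ± 2.63 CPM.

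Slc11a2 encodes DMT1, which moves ferrous iron out of the endosome after transferrin uptake. Its mean was 42.7 ± 3.84 CPM for the midbrain (SD, n = 12), 36.1 ± 4.63 for the striatum (n = 12) and 37.4 ± 7.71 for the PFC (n = 11). The ranges overlapped, and the lowest value of all, 19.8 CPM, came from the PFC of mouse 1. That sample also had the most monocyte and neutrophil marker RNA, 44.5 CPM, and a link between the 2 was not tested. Slc11a2 did not pass the test for region in the additive model (adjusted p = 0.168). Blocking on the mouse, it did (adjusted p = 0.0271): striatum minus midbrain was -0.25 in that fit (adjusted p = 0.0233), under the minimum on the fold change, and the striatum was lower in 11 of 12 mice. Gm5475, on the opposite strand, overlaps Slc11a2 over 197 bases and stood at 0.82 ± 0.35 CPM. Whether counting used the strand is not given in the sources used here.

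Tfrc, the transferrin receptor, was the import gene with the least RNA per length. Its mean was 17.5 ± 4.48 CPM for the midbrain (SD, n = 12), 14.8 ± 2.01 for the striatum (n = 12) and 14.4 ± 3.42 for the PFC (n = 11), with ranges of 12.9 to 26.4, 11.8 to 18.4 and 6.37 to 18.2. It did not pass the test for region (adjusted p = 0.304). PFC minus midbrain was -0.28 with a 95% interval of -0.55 to -0.012 (unadjusted p = 0.0408, edgeR adjusted p = 0.260), and the PFC was lower in 9 of 11 mice.

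Hmox1 encodes the inducible heme oxygenase, which opens the heme ring and frees its iron. It was the most variable member, with a coefficient of variation of 50.7% over the 35 samples against 8.87% for Aco1, the least variable. Its lowest, median and highest values were 63.6, 161 and 340.3 CPM in the midbrain, 60.8, 131 and 228 in striatum samples and 54.6, 96.6 and 302 in PFC samples. The regions overlapped over most of their range. Hmox1 did not pass the test for region (adjusted p = 0.711), and the 95% interval of PFC minus midbrain ran from -0.93 to 0.28, a PFC level between 0.525 and 1.22 times that of the midbrain.

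Aco1 encodes IRP1, which also serves as the cytosolic aconitase when it holds an iron-sulfur cluster, and Ireb2 encodes IRP2, which is degraded when iron is plentiful. The mean of Aco1 was 56.1 ± 6.64 CPM for the midbrain (SD, n = 12), 52.8 ± 2.97 for the striatum (n = 12) and 54.4 ± 3.82 for the PFC (n = 11). Its 95% intervals were the narrowest of the 10, from -0.16 to 0.062 for PFC minus midbrain and from -0.19 to 0.021 for striatum minus midbrain, which leave out a change of 1.2-fold. Ireb2 measured 16.6 ± 1.97, 15.4 ± 3.54 and 16.6 ± 4.23 CPM in the same order. Neither passed the test for region (adjusted p = 0.58 and 0.835).

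The mouse, with 12 levels against 3 of region, takes a large share of the sum of squares of most genes, with a median of 48.6% over the 8623 genes with a mean of at least 8 CPM. Among the members this share, after region was removed, was 76.2% for Ireb2, 59.2% for Hmox1, 58.7% for Aco1 and 52.7% for Tfrc, and it was under the median for the other 6, from 47.1% for Slc11a2 and 44.9% for Ftl1 down to 15.98% for Slc40a1. The mean of Ireb2 over the regions of a mouse lay between 16.6 and 20.9 CPM in mice 1 to 6 and between 11.6 and 15.6 CPM in mice 7 to 12. These means did not overlap, though single samples of the sets did, and the gap between the sets was smaller than some gaps within them. The mean of 20.9 CPM, in mouse 3, was over 2 samples. Its striatum sample, at 23.7 CPM, is that whose column name and label disagree on the region. Hmox1 measured 110 ± 40.1 CPM (17 samples) in mice 1 to 6 and 190 ± 83.0 CPM (18 samples) in mice 7 to 12, and Ftl1 1658 ± 306 and 2055 ± 389 CPM. Both overlapped between the sets. In mouse 8 Hmox1 ran from 60.8 CPM in the striatum to 308 in the midbrain, while in mouse 9 all 3 regions lay between 88.0 and 100.4 CPM. The labels give no batch that separates these mice, and the difference between the sets was not tested.

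**Figure D4:**
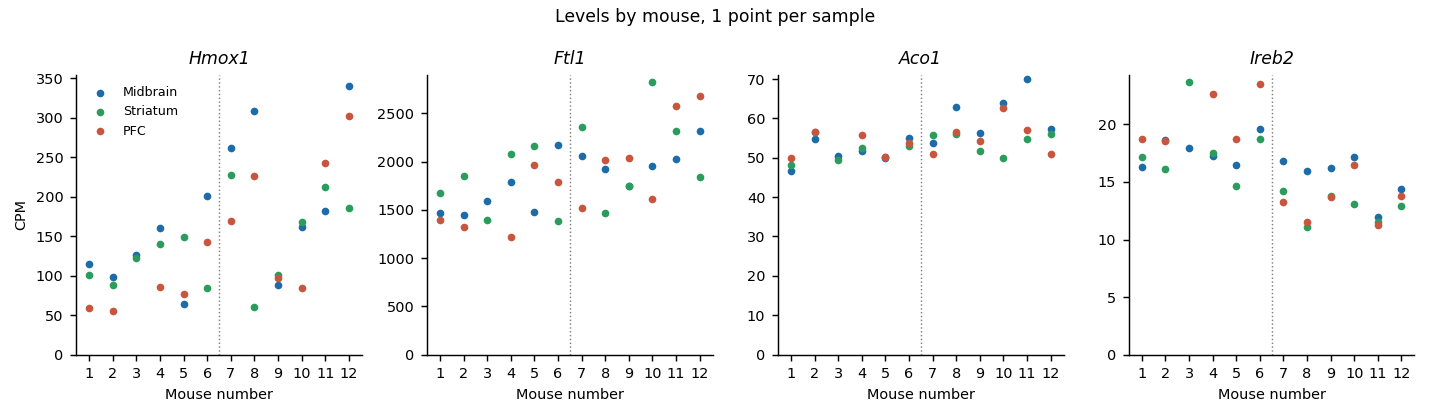
Level in CPM (vertical axes, from 0) of Hmox1, Ftl1, Aco1 and Ireb2 in each of the 12 mice (horizontal axes), with 1 point per region and a dotted line between mice 6 and 7. The mean of Ireb2 runs from 11.6 CPM in mouse 11 to 20.9 CPM in mouse 3 (2 samples), and Hmox1 spreads from 60.8 to 308 CPM within mouse 8.

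The sexes were compared in the same fit, with region as a term. No member passed the test between female and male mice (0 of 10 by edgeR and 0 by DESeq2, with 0 at an unadjusted p under 0.05), against 4.13% of all genes at p under 0.05 and a change of more than 1.2-fold (1.48% higher and 2.66% lower in females) and 0.339% at an adjusted p under 0.05. The member with the smallest unadjusted p was Aco1. Its log2 difference was 0.078 (standard error 0.044, 95% interval -0.010 to 0.17), at 55.9 CPM in females and 52.9 in males. For Slc40a1 the log2 difference was 0.058 (-0.069 to 0.18) and for Fth1 -0.044 (-0.15 to 0.066). These intervals treat the samples of 1 mouse as independent, although sex differs only between mice. The log2 difference of the largest size was that of Hmox1, 0.16, with a wide interval from -0.33 to 0.66. An interaction of region and sex was called for 0 members by edgeR and 0 by DESeq2, and for 0.00% of all genes. At an unadjusted p under 0.05 it was found for 0 members and 2.98% of all genes. Within single regions, the sex difference with the largest size was that of Hmox1 in the midbrain, 0.60 with a standard error of 0.41 (edgeR adjusted p = 1).

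Across the 12 mice, 8 pairs of members fixed from their roles were correlated, with 1 value per mouse from which the mean of each region had been removed, and 0 pairs had an adjusted p under 0.05. Fth1 and Ftl1 had a Pearson's r of 0.46 (two-sided permutation p = 0.134, adjusted 0.257) and a Spearman's rho of 0.39 (permutation p = 0.208, adjusted 0.363), and r was 0.35 without the 2 mice farthest from the median of Fth1. Within mice 7 to 12 it was 0.95 (exact permutation p = 0.0139, adjusted 0.0556) and within mice 1 to 6 0.56 (exact permutation p = 0.258). Slc40a1 and Slc11a1 had an r of -0.55 (permutation p = 0.0732, adjusted 0.257) and a rho of -0.43 (permutation p = 0.162, adjusted 0.363), and r was -0.72 (permutation p = 0.0171, adjusted 0.137) without the 2 farthest mice. It took opposite signs in the sets, 0.44 in mice 1 to 6 (exact permutation p = 0.383) and -0.88 in mice 7 to 12 (exact permutation p = 0.00972, adjusted 0.0556). Aco1 and Ireb2 had the r of the largest size, -0.64 (permutation p = 0.0248, adjusted 0.199), and a rho of -0.64 (permutation p = 0.0281, adjusted 0.225). Without the 2 farthest mice r was -0.55 (permutation p = 0.108), and within mice 1 to 6 it was 0.21, within mice 7 to 12 -0.59 (exact permutation p = 0.675 and 0.222). The remaining pairs, Fth1 with Slc40a1, Tfrc and Ncoa4, Slc40a1 with Hmox1, and Tfrc with Slc11a2, had r between -0.36 and 0.46 and adjusted p of at least 0.257.

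The genes whose log2 CPM over the 35 samples was most like that of a member were named as a description, among 8622 genes with a mean of at least 8 CPM. The samples share their mice and libraries. For Slc40a1 they were Tmem204 (r = 0.85, from 65.1 CPM in the midbrain to 108 in the PFC), Ctns, the lysosomal cystine transporter (r = 0.81), and Angptl7 (r = 0.79). For Fth1 they were Bcl2a1d (r = 0.87) and Bcl2a1a (r = 0.84), near-identical members of a survival gene family between which reads may be split, and Hcar2 (r = 0.80), which went from 68.6 CPM in the midbrain to 17.99 in the PFC. For Slc11a1 they included Slc7a5, an amino acid transporter (r = 0.80), and the lysosomal sulfatase Arsb (r = 0.79). Ncoa4 was most like its copy Gm6768 (r = 0.93), then Ate1 (r = 0.82) and Prkar1a (r = 0.78).

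Beyond the members, 91 other genes of iron and heme handling had been listed in 9 groups. Of these 77 were in the table, and 9 of the 77 (11.7%) had an effect of region, against 8.89% of all genes. Among all 8623 genes with a mean of at least 8 CPM the share was 11.5%, near that of the list. The list was not limited to that level. Of the 77, 58 had such a mean, and Pcbp3 and Hp, among the 9 with an effect, did not. Between PFC and midbrain 3 were higher and 3 lower in the PFC, against 2.75% and 3.24% of all genes. Between striatum and midbrain 3 were higher and 2 lower in the striatum (3.50% and 2.98% of all genes). Between striatum and PFC 2 were higher and 0 lower in the striatum (2.31% and 0.833%). These 2 were Lrp1 and Hp. Hp, which was also among those called lower in the PFC than in the midbrain, had 0 counts in every PFC sample. Of the 77, 0 were higher and 2 lower in females, against 1.48% and 2.66% of all genes. Their median log2 difference between regions, in the same order, was 0.025, -0.021 and -0.041. Hepcidin (Hamp), the hormone that degrades ferroportin, was among the listed genes that have no row in the table.

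In the group of iron uptake and reduction, 2 of 8 measured genes had an effect of region. Hfe, the hemochromatosis protein that binds the transferrin receptor, was higher in both forebrain regions, with means of 216 ± 27.1 CPM for the midbrain (SD, n = 12), 264 ± 12.5 for the striatum (n = 12) and 264 ± 19.9 for the PFC (n = 11) (edgeR adjusted p = 6.92e-04 and 5.00e-04 against the midbrain). Slc39a14, the importer ZIP14, ran the other way, from 15.3 ± 2.13 CPM in the midbrain to 11.2 ± 1.41 and 11.6 ± 3.02 (adjusted p = 0.00581 and 0.0174). The most abundant gene besides Hfe was Trf, transferrin itself, with 158, 169.5 and 154 CPM in the midbrain, striatum and PFC, and it did not pass the test for region.

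Of 7 measured chaperone and mitochondrial iron genes, 1 had an effect: Pcbp3, a relative of the iron chaperones Pcbp1 and Pcbp2, fell from 3.67 ± 1.03 CPM in the midbrain to 2.10 ± 0.69 in the striatum (adjusted p = 0.0189) and 2.29 ± 1.08 in the PFC (adjusted p = 0.0645, called on its unadjusted p). Pcbp1 and Pcbp2 stood at 250 and 68.8 CPM in the midbrain and did not pass the test for region. Of 11 genes of heme uptake, export and breakdown, 2 had one. Lrp1, a scavenger receptor that takes up hemopexin with heme among many ligands, measured 132 ± 28.7 CPM in the midbrain, 279 ± 63.3 in the striatum and 168 ± 47.4 in the PFC, and the striatum was higher than the midbrain (log2 difference 1.09, adjusted p = 1.21e-06) and the PFC (0.73, adjusted p = 0.00472). PFC minus midbrain was 0.36 (adjusted p = 0.118, called on its unadjusted p). Astrocytes express Lrp1 too, and the astrocyte markers were higher in the striatum than in the midbrain, as given above. In the PFC these markers summed to 260 to 491 CPM, near the 259 to 431 CPM of the striatum. The part of astrocytes in the level of Lrp1 was not tested. Hp, haptoglobin, was at the limit of detection, with 0 counts in all 11 PFC samples and more than 3 in 5 of 12 midbrain samples. Hmox2, the constitutive heme oxygenase, stood at 213, 218 and 222 CPM and did not pass the test for region.

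Among the Nrf2 targets, 2 of 8 had an effect. Osgin1, an oxidative stress response gene, measured 14.2 ± 5.55 CPM in the midbrain, 21.6 ± 6.17 in the striatum and 25.97 ± 10.9 in the PFC, and was called higher in both (adjusted p = 0.0746 for the striatum, called on its unadjusted p, and 0.00820 for the PFC). G6pdx, which makes NADPH, was lower by less than 1.2-fold in both (-0.18 and -0.17 on the log2 scale, adjusted p = 0.0115 and 0.0193). Among 6 genes of ferroptosis, the form of cell death driven by iron and lipid peroxides, Acsl4 and Lpcat3 had an effect. Both enzymes place polyunsaturated fatty acids in membrane lipids. Acsl4 stood at 99.7 ± 7.90 CPM in the midbrain, 83.9 ± 7.72 in the striatum and 83.4 ± 9.18 in the PFC, and Lpcat3 at 207 ± 19.97, 248 ± 20.2 and 231 ± 19.4 CPM, so the 2 ran in opposite directions, in each case by less than 1.2-fold. The most abundant genes of these groups besides were Gclc, which starts glutathione synthesis (81.9 CPM in the midbrain), Slc3a2, a subunit of the cystine importer (465), and Sat1, an enzyme of polyamine breakdown (569.99), and these 3 did not pass the test for region. The groups of heme synthesis (0 of 9), iron-sulfur cluster assembly (0 of 17), regulators of iron and heme genes (0 of 8) and export and the hepcidin axis (0 of 3) had 0 genes that passed the test for region. Their most abundant genes over all samples were Alas1 and Fech (166 and 82.9 CPM in the midbrain), Hspa9 and Iscu (122 and 115), Zfp36 and Nfe2l2 (2466 and 348), and Cp (7.29). The other genes of the last group, Bmp6 and Heph, were at or under 0.218 CPM in every region. Zfp36 is also on the list of genes that dissociation can induce.

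**Figure D5:**
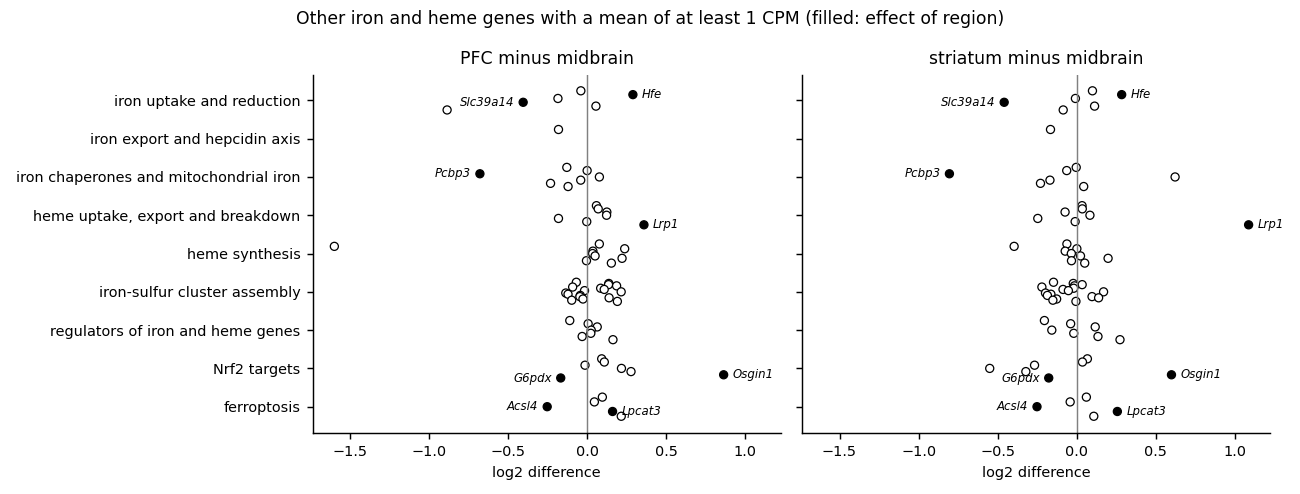
Log2 differences of the 66 other iron and heme genes with a mean of at least 1 CPM (horizontal axes), by group, for PFC minus midbrain and striatum minus midbrain, filled and named where the gene had an effect of region. Hfe, Lrp1, Osgin1 and Lpcat3 lie above 0 in both panels and Slc39a14, Pcbp3, G6pdx and Acsl4 below it.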

How the data were processed

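Smart-Seq HT libraries of sorted microglia (35 samples, midbrain, striatum and PFC of 12 mice) were analysed from the table of gene counts that the authors deposited. Per the methods of the study, reads were trimmed with Trimmomatic and aligned to GRCm38 with HISAT2, and a filter of at least 1 CPM in at least 1 subgroup of sex and region was applied. The deposited table does not follow it as read here: 8379 of its genes (39.5%) had a mean of at least 1 CPM in no subgroup, and 6737 (31.7%) reached 1 CPM in no sample. All were kept in the fit, and filterByExpr was the alternative. The counting tool, annotation release, strand setting and treatment of multi-mapping reads are not given in the sources used here. Groups came from the labels. The column of 1 sample labelled as striatum of mouse 3 is named for the PFC; it was matched by its library number and also left out as an alternative.

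Symbols, lengths and UTRs came from GENCODE M21 (21103 of 21236 gene IDs matched). Counts were fitted with edgeR 4.0.16 (R 4.3.3), TMM factors and the robust quasi-likelihood test with region and sex as terms over all genes and samples, with Benjamini-Hochberg adjustment. Genes named were the 10 members, the 3 genes most correlated with each member that had an effect of region, and, in each list of other iron genes, those with an effect of region and the most abundant. One gene that this rule names is not reported here. The members and lists were chosen with earlier results of these data known. Samples of 1 mouse are paired by the animal: after group means were removed, their mean correlation was 0.22 over 34 pairs (27 above 0.1). For samples of different mice, of the same sex and different regions, it was -0.043 over 170 pairs (38 above 0.1). Pairs of columns with identical values numbered 0. Copies were found with blastn 2.17.0. The fit was tested on simulated counts. Alternatives were DESeq2 1.42.0, its size factors, filterByExpr (16966 genes), the mouse as a block, single mice left out, mice 1 to 6 or 7 to 12 alone or as a covariate, a covariate of other brain cell markers, members summed with their copies, the mismatched sample left out, and calls by adjusted p alone.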

Additional observations from a re-analysis of the deposited data

Results flagged for a closer look

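In 60 groups of 1 member, region and sex, 4 samples lay far from the rest of their group by Dixon's criterion, where chance flags about 1 in 20 groups, or 3. Fth1 in the PFC of female mouse 12 measured 2893 CPM, against 2056 to 2339.9 CPM in the other 5 females. Tfrc in the midbrain of female mouse 12 measured 26.4 CPM, against 13.9 to 17.8 CPM. Tfrc in the PFC of female mouse 2 measured 6.37 CPM, against 14.1 to 17.1 CPM. Ireb2 in the midbrain of male mouse 11 measured 12.0 CPM, with the nearest male at 16.2 CPM.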

How the results depend on the processing

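The member counts in the report were 4 with an effect of region, 3 for PFC minus midbrain, 1 for striatum minus midbrain, 0 for striatum minus PFC and 0 for sex. No called value changed sign under any alternative run. With the mouse as a replicate block, region gave 5 members (Slc11a2 added, adjusted p = 0.0271) and striatum against PFC 1 (Ncoa4), and the block changed no other call. In mice 1 to 6 alone region gave 2 and striatum against midbrain 2, and in mice 7 to 12 alone region gave 1 and PFC against midbrain 1. Over all genes mice 1 to 6 gave 512 for region and 411 for striatum against midbrain. Mice 7 to 12 gave 1183 for region and 905 for PFC against midbrain, where the main fit called 1271. Striatum against midbrain gave 2 with the marker covariate and 3 with an adjusted p and no fold minimum. For this pair the calls over all genes were 1012 and 1583, against 1375 in the main fit. Striatum against PFC gave 1 without the striatum sample of mouse 3, with the set of mice as covariate, with copies summed, and with the adjusted p, in each case Ncoa4. Over all genes this pair gave 672, 1009, 667 and 121 calls in that order. Leaving out each mouse in turn gave 3 to 4 for region, 2 to 3 for PFC against midbrain, 1 to 2 for striatum against midbrain, 0 to 1 for striatum against PFC (1 without mouse 3, 6, 11 or 12) and 0 to 0 for sex. In these fits region was called for between 1389 (without mouse 2) and 1854 (without mouse 5) of all genes. The cause of these changes was not tested. Of the single-gene values under alternatives, 1118 kept their side of the threshold, 12 passed it newly and 14 no longer did. The lowest count of any member was 329, and a part of depth in these changes was not tested.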
